A study of Gallus gallus with 24 samples.

Results

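MSMB, PPL, SCNN1A, GPRC5A and AQP1 are 5 genes best known from epithelia and other lining cells, and they were picked from the 17934 features of the count table because earlier analysis of these birds had shown them at higher levels in lean than in fat abdominal adipose tissue. The 3 sequencing runs of each bird were summed, and the question was whether the 5 genes rise and fall together from bird to bird, as they would with the share of a common cell type, or differ by line alone. The difference between the lines was used to choose them, so their fold changes are a description. How many of them passed the test across all genes is given as a description only, and nothing is drawn from it. All 5 passed the filter on low counts that left 11187 genes for the comparison of the lines.

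Abdominal fat is wrapped in a sheet of mesothelium, a flat surface epithelium that makes keratins, mesothelin and uroplakins. Epithelial cells are held together by cadherins and desmosomes, to which proteins of the plakin family tie the keratin filaments, and many take up salt and water through sodium channels and aquaporins in their membranes. Among the 5 genes, MSMB encodes beta-microseminoprotein, a small secreted protein that in mammals is found in prostate and mucosal fluids. PPL encodes periplakin, a plakin of desmosomes. SCNN1A encodes the alpha subunit of the epithelial sodium channel. GPRC5A encodes an orphan receptor that retinoic acid induces in mammalian cells, and AQP1 encodes a water channel of red blood cells, capillary endothelium and mesothelium in mammals.

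The birds were cockerels of a fat line (FL) and a lean line (LL), chickens bred apart by selection on the weight of abdominal fat, and their abdominal adipose tissue was taken at 7 weeks of age without further treatment. There were 4 FL and 4 LL birds, labelled as biological replicates, with 3 runs of sequencing each. In bulk tissue, fewer cells of a type and less RNA per cell cannot be told apart.

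Bird totals ranged from 4299772 to 10878211 counts in the FL and from 5548867 to 12876999 in the LL. FL4 stood apart from the other libraries, since its skeletal muscle markers summed to 16732 CPM (counts per 1000000 counts of the library) against 85.1 to 92.9 in the other FL birds and 74.9 to 121 in the LL, and results are therefore given with and without it. In edgeR's quasi-likelihood test, 41 genes were differentially expressed (DE), which means an edgeR adjusted p up to 0.05 together with a change of 1.2-fold or more, and the FL had the higher level in 23 of them and the LL in 18. Of the marker lists, gut (2 genes tested), pancreas (2), leukocyte (7), smooth muscle (3) and skeletal muscle (4) held 0 DE genes, of which GCG and MARCO in the LL and the 4 skeletal muscle genes in the FL passed an unadjusted p under 0.05, and no kidney marker had enough counts for the test. Adipocyte markers were abundant, as the tissue label requires, with sums of 15617 to 18232 CPM in the FL and 12765 to 17011 CPM in the LL. Of their 12 entries, in which PLIN1 appears as 2, the DE genes were LPIN1 (log2 fold change 0.64) and PCK1 (-3.52). PCK1 was at 0.136 to 0.327 CPM in the FL, close to the limit of detection, and at 1.66 to 3.99 CPM in the LL.

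Of the 5 genes, 4 were higher in every LL bird than in any FL bird, and GPRC5A was the exception. Among all genes tested, 4.34% had the 4 LL birds above the 4 FL birds and 3.76% the reverse, 8.1% in all. DE genes made up 0.366% of the genes tested, 0.161% with the higher level in the LL and 0.206% with the higher level in the FL, and an unadjusted p under 0.05 was reached by 6.62% toward the LL and 6.49% toward the FL. MSMB, AQP1 and PPL were among those DE genes and SCNN1A and GPRC5A were not. With 1 bird left out, 1 to 3 of the 5 were called, the 3 being without FL4. As the genes were chosen on this contrast, these calls and shares are no evidence about them.

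MSMB, listed on chromosome 6 from 18913941 to 18918302 of build 2.1, had the largest difference of the 5. Its levels were 1.96, 0.686, 2.31 and 1.22 CPM in FL replicates 1 to 4 and 42.1, 22.9, 20.9 and 22.4 CPM in LL replicates 1 to 4. The FL birds were all close to the limit of detection, FL2 with 3 counts, whereas LL1 stood well above the other LL birds. The mean was 1.54 ± 0.730 CPM in the FL and 27.1 ± 10.1 CPM in the LL (SD, n = 4), and the log2 fold change (FL/LL) was -4.06 ± 0.34 (SE). It was -3.91 without FL4 and -3.76 without LL1.

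**Figure D1:**
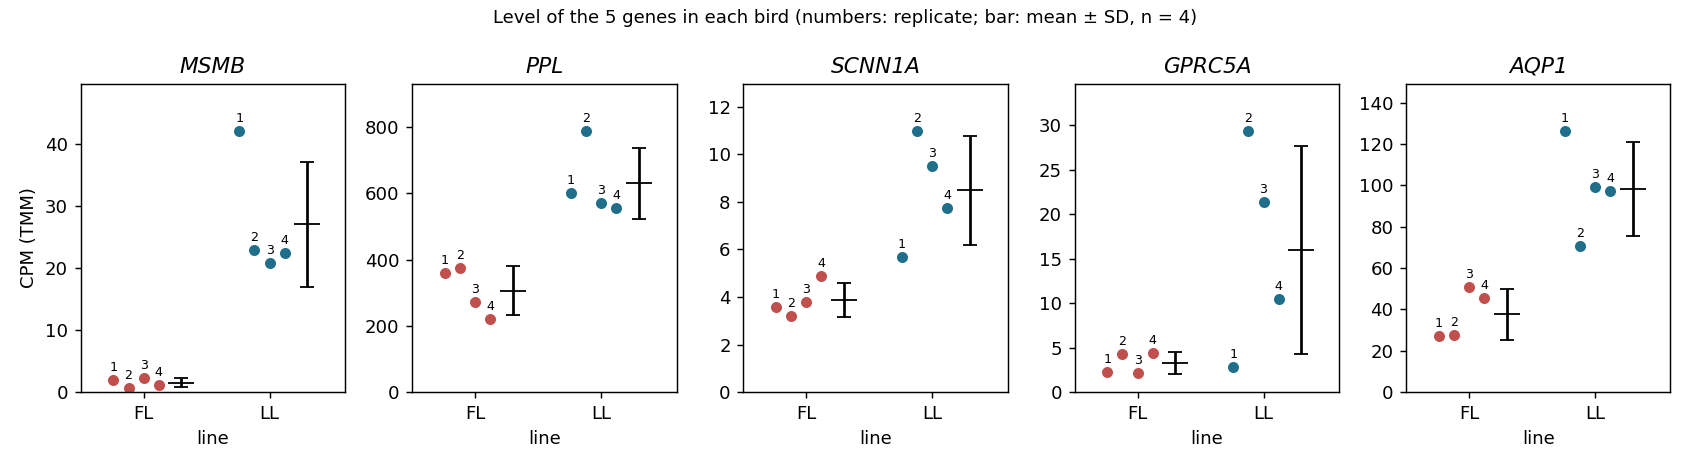
Level of each of the 5 genes in CPM (linear axis from 0) in the 4 FL and 4 LL birds, with the replicate number beside each point and the mean ± SD of the line as a bar. The LL birds lie above the FL birds for MSMB, PPL, SCNN1A and AQP1, and for GPRC5A bird LL1 (2.85 CPM) lies within the range of the FL.

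A second gene named MSMB in the annotation of the study lies on chromosome 6 from 18903220 to 18908086, with 5854 bases between the end of this copy and the start of MSMB, and it was higher in the FL. Its levels were 352, 387, 407 and 309.9 CPM in FL replicates 1 to 4 and 43.9, 159, 155 and 171 CPM in LL replicates 1 to 4. The lines did not overlap, and LL1, which had the highest level of MSMB, had the lowest level of this copy. The log2 fold change was 1.46 ± 0.34 (SE), with an edgeR adjusted p of 0.116, and without LL1 it was 1.17 with an edgeR adjusted p of 0.0118.

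The share of MSMB in the counts of the pair is given as a description, since MSMB was chosen for its higher level in the LL. MSMB held 0.554% (95% Clopper-Pearson interval 0.329 to 0.874%) of the counts of both copies in FL1, 0.177% (0.0365 to 0.517%) in FL2, 0.563% (0.328 to 0.900%) in FL3 and 0.391% (0.202 to 0.682%) in FL4. In the LL it held 49.0% (44.95 to 53.1%) in LL1, 12.6% (10.6 to 14.8%) in LL2, 11.8% (10.5 to 13.3%) in LL3 and 11.6% (9.94 to 13.4%) in LL4. The intervals cover counting error only and not the spread between birds. LL1 had the highest share, and the other LL birds lay close together. The sum of both copies was 311 to 409.6 CPM in the FL and 86.0 to 193 CPM in the LL, the lowest being LL1. Reads with several matches were left out by the authors, and any that fit both copies would be missing here. The values of either copy are therefore uncertain, and the share compares birds and not the abundance of the transcripts.

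**Figure D2:**
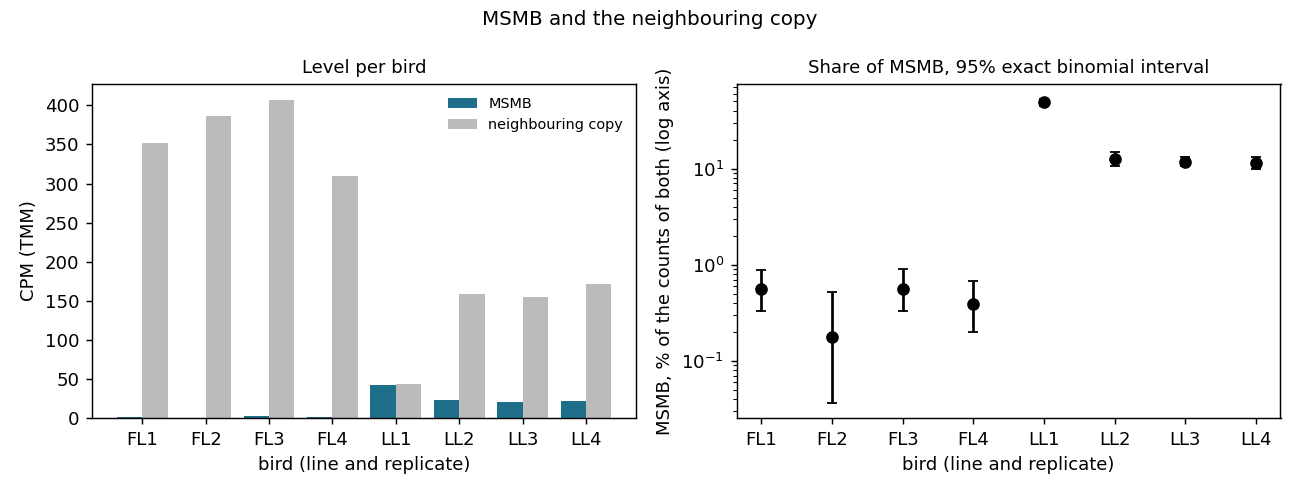
Levels of MSMB and of its neighbouring copy in CPM per bird (left, linear axis from 0) and the share of MSMB in the counts of both with 95% exact binomial intervals (right, log axis). The copy was at 309.9 to 407 CPM in the FL and at 43.9 to 171 CPM in the LL, and the share of MSMB was 0.177 to 0.563% in the FL and 11.6 to 49.0% in the LL.

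PPL, listed as Q6PVZ7_CHICK on chromosome 14 from 14021404 to 14042900, was read deeply, with 1639 to 7235 counts per bird. Its levels were 359, 375, 272 and 221 CPM in FL replicates 1 to 4 and 601, 789, 572 and 557 CPM in LL replicates 1 to 4. LL2 was the highest bird, and the highest FL bird lay below the lowest LL bird. The means were 307 ± 72.8 CPM and 629 ± 108 CPM (SD, n = 4), and the log2 fold change was -1.04 ± 0.18 (SE). Without FL4 it was -0.91.

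Of the other plakin and desmosome genes, 0 of 6 tested were DE, beside 0.366% of all genes tested, and 3 were higher in the LL at an unadjusted p under 0.05, beside 6.62% of all genes. The median log2 fold change of the 6 was -0.59, beside 0.00 for all genes tested. DST, a plakin of hemidesmosomes and the cytoskeleton, was at 345 to 405 CPM in the FL and 431 to 520 CPM in the LL (log2 fold change -0.33, edgeR adjusted p = 0.195). DSP, the desmoplakin of desmosomes, was at 3.05 to 5.48 CPM in the FL and at 3.42, 16.7, 17.3 and 7.04 CPM in LL replicates 1 to 4 (log2 fold change -1.39, edgeR adjusted p = 0.217). DSG2, a desmosomal cadherin, had a log2 fold change of -2.05 with an edgeR adjusted p of 0.217. For DSP and DSG2, LL1 lay within the range of the FL birds, unlike for PPL. EVPL, the plakin that pairs with periplakin in the cornified envelope of mammalian skin, had 0, 1, 0 and 8 counts in FL replicates 1 to 4 and 2, 59, 82 and 11 counts in LL replicates 1 to 4, and was too low to be tested.

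SCNN1A, listed as SCNNA_CHICK on chromosome 1 from 80034708 to 80045594, was a gene of low level in both lines. It was at 3.597, 3.20, 3.798 and 4.87 CPM in FL replicates 1 to 4 and at 5.70, 10.98, 9.48 and 7.73 CPM in LL replicates 1 to 4. The order of the LL birds ran from LL2 through LL3 and LL4 down to LL1, which was 1.17 times the highest FL bird. The log2 fold change was -1.11 ± 0.24 (SE), and it was -1.25 both without FL4 and without LL1.

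Of the remaining genes of the sodium channel pathway, 0 of 12 tested were DE, as was the case for SCNN1A. At an unadjusted p under 0.05, 2 were higher in the LL and 1 in the FL, beside 6.62% and 6.49% of all genes. The median log2 fold change of the 12 was -0.01. SCNN1G, the gamma subunit, was at 5.01 to 7.00 CPM in the FL and 3.28 to 6.56 CPM in the LL (log2 fold change 0.20, edgeR adjusted p = 0.788). SCNN1B, the beta subunit, had at most 13 counts in a bird and was not tested. CFTR, the chloride channel of epithelia, was at 15.6 to 18.7 CPM in the FL and 22.1 to 37.4 CPM in the LL (edgeR adjusted p = 0.141). ATP1B1, a subunit of the sodium pump, was at 131 to 154 CPM in the FL and 163 to 239 CPM in the LL (edgeR adjusted p = 0.192). For CFTR and ATP1B1, as for SCNN1A, every LL bird lay above every FL bird, which held for 4.34% of all genes tested. ST14, the membrane protease matriptase, went the other way with 86.9 to 139 CPM in the FL and 23.2 to 60.4 CPM in the LL (log2 fold change 1.38, edgeR adjusted p = 0.0605).

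GPRC5A, on chromosome 1 from 50100660 to 50104148, differed between birds of the LL more than any other of the 5. It was at 2.29, 4.35, 2.17 and 4.36 CPM in FL replicates 1 to 4 and at 2.85, 29.4, 21.3 and 10.5 CPM in LL replicates 1 to 4. In LL2, LL3 and LL4 it was above every FL bird, but LL1 was at the level of the FL. The means were 3.29 ± 1.23 CPM and 16.0 ± 11.7 CPM (SD, n = 4), with a log2 fold change of -2.30 ± 0.59 (SE), and this was -2.52 without FL4 and -2.64 without LL1.

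Of the other GPRC5 and retinoid genes, 0 of 10 tested were DE, with 2 higher in the LL at an unadjusted p under 0.05, beside 6.62% of all genes. ALDH1A1, an enzyme that makes retinoic acid, was at 9.48, 19.4, 20.5 and 14.8 CPM in FL replicates 1 to 4 and 53.2, 40.4, 24.7 and 30.5 CPM in LL replicates 1 to 4 (log2 fold change -1.22, edgeR adjusted p = 0.116). RARB, a retinoic acid receptor, was at 12.3 to 17.8 CPM in the FL and 18.96 to 25.1 CPM in the LL (log2 fold change -0.57, edgeR adjusted p = 0.156). Neither line overlapped the other for ALDH1A1 or RARB, beside 4.34% of all genes with the LL above the FL. LL1 was the highest bird for ALDH1A1. The relatives GPRC5B and GPRC5C had log2 fold changes of -0.39 and -0.60 with edgeR adjusted p of 0.414 and 0.556.

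AQP1, listed as Q2MCJ7_CHICK on chromosome 2 from 990377 to 1008846, was higher in every LL bird than in any FL bird. It was at 27.0, 27.4, 50.7 and 45.3 CPM in FL replicates 1 to 4 and at 126, 70.9, 99.3 and 97.2 CPM in LL replicates 1 to 4. LL1 was highest, as for MSMB, and LL2 lowest of the LL. The means were 37.6 ± 12.2 CPM and 98.5 ± 22.7 CPM (SD, n = 4), and the log2 fold change was -1.38 ± 0.23 (SE). Without FL4 it was -1.49. AQP3, a water and glycerol channel and the only other aquaporin that could be tested, was at 165 to 245 CPM in the FL and 162 to 249.8 CPM in the LL (log2 fold change -0.18, edgeR adjusted p = 0.698).

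Endothelium and red blood cells, both of which use AQP1 in mammals, overlapped between the lines in their summed markers. Of 15 endothelial markers tested 0 were DE and 1, PROX1, was higher in the LL at an unadjusted p under 0.05, beside 6.62% of all genes. Their summed level was 3903 to 4433 CPM in the FL and 3800 to 4751 CPM in the LL. Of 6 red blood cell markers tested 0 were DE and 0 passed that p, and the summed level was 428 to 925 CPM in the FL and 313 to 755 CPM in the LL. The red blood cell list held 21 markers, of which 7 were found by name. The bird with the highest AQP1, LL1, had the lowest red blood cell sum. With either list's level as a covariate, the log2 fold change of AQP1 was -1.48 (endothelium) or -1.35 (red blood cells).

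Mesothelial and epithelial markers were compared bird by bird with the 5 genes. Of 17 mesothelial markers listed, 13 were found by name and 11 could be tested. KRT7, KRT18, GPM6A and PKHD1L1 were not found, and the paper gives KRT7 among its top genes higher in the LL. Of the 11 tested, 10 were higher in the LL on average, beside 49.5% of all genes tested. None was a DE gene (0 of 11), 4 were higher in the LL at an unadjusted p under 0.05, beside 6.62% of all genes, and their median log2 fold change was -0.77. MSLN, mesothelin, was at 1.96, 1.601, 1.09 and 1.83 CPM in FL replicates 1 to 4 and at 1.14, 17.0, 14.1 and 5.25 CPM in LL replicates 1 to 4 (edgeR adjusted p = 0.149). UPK3B, a uroplakin of mesothelium, was at 0, 1.601, 0 and 4.56 CPM in the FL and at 0.285, 20.7, 14.9 and 6.49 CPM in the LL (edgeR adjusted p = 0.319). For both, LL1 was as low as the FL birds, while LL2 was highest and was followed by LL3 and LL4.

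UPK1B, another uroplakin, was at 0.229 to 1.52 CPM in the FL and at 0.142, 7.97, 4.98 and 2.90 CPM in LL replicates 1 to 4 (edgeR adjusted p = 0.229). Without FL4, its log2 fold change went from -2.50 to -3.51 (edgeR adjusted p = 0.146). That of UPK3B went from -2.71 to -4.84 (edgeR adjusted p = 0.141). WT1, a transcription factor of mesothelium, was at 5.12 to 8.42 CPM in the FL and at 8.12, 14.7, 14.4 and 11.3 CPM in LL replicates 1 to 4 (log2 fold change -0.74, edgeR adjusted p = 0.201). CALB2, calretinin, had at most 1 count in any bird. The summed mesothelial level was 69.7 to 131 CPM in the FL and 89.7 to 194 CPM in the LL, so the lines overlapped. The larger part of this sum came from LRRN4 and KRT19. LRRN4 was at 31.2 to 48.0 CPM in the FL and 39.5 to 52.2 CPM in the LL (log2 fold change -0.17). KRT19 was at 12.3 to 44.8 CPM in the FL and 13.2 to 52.1 CPM in the LL (log2 fold change -0.85). Without LL1, 2 of the 11 markers were DE genes, MSLN among them (log2 fold change -2.87, edgeR adjusted p = 0.0332), and DESeq2 called 1 of the 11 with all birds.

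Of 38 epithelial markers listed, 19 were found by name and 13 could be tested. Of these 13, 5 were higher in the LL and 3 in the FL at an unadjusted p under 0.05, beside 6.62% and 6.49% of all genes. The 3 were LAMB3, ST14 and GJB1, with a log2 fold change of 1.35 for GJB1 (edgeR adjusted p = 0.299). The 1 DE gene, the laminin subunit LAMB3, was higher in the FL (log2 fold change 1.81, edgeR adjusted p = 0.0345). LAMB3 passed the test in 1 of the 8 fits with 1 bird left out, the one without FL4. It was at 46.8 to 100.4 CPM in the FL and 12.8 to 27.5 CPM in the LL. EPCAM, an adhesion molecule of epithelia, was at 0, 0.686, 0 and 2.74 CPM in FL replicates 1 to 4 and at 0.427, 17.2, 13.4 and 7.59 CPM in LL replicates 1 to 4 (edgeR adjusted p = 0.195). CDH1, E-cadherin, was at 0.407 to 2.64 CPM in the FL and at 0.285, 15.9, 16.3 and 5.80 CPM in LL replicates 1 to 4 (edgeR adjusted p = 0.185). Without FL4, the log2 fold change of EPCAM went from -3.35 to -5.88 (edgeR adjusted p = 0.0877). That of CDH1 went from -2.99 to -4.00 (edgeR adjusted p = 0.132). KLF5, a transcription factor of epithelia, was at 4.35 to 8.72 CPM in the FL and 8.54 to 16.5 CPM in the LL, with an edgeR adjusted p of 0.109, which was 0.0351 without FL4. The median log2 fold change of the 13 was -0.59, but their summed level was higher in every FL bird, at 307 to 340 CPM against 150.3 to 293 CPM in the LL. ST14 and LAMB3 were the epithelial markers with FL birds above all LL birds, beside 3.76% of all genes tested. ST14 was at 86.9 to 139 CPM in the FL and 23.2 to 60.4 CPM in the LL. It and LAMB3 set the direction of the sum, while 8 of the 13 markers were higher in the LL on average.

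The order of the LL birds in GPRC5A and SCNN1A, LL2 above LL3 above LL4 above LL1, recurred in these markers. It held in 6 of 11 mesothelial and 5 of 13 epithelial markers, and in 5.66% of all genes tested. LL1 was the lowest LL bird in 7 of 11 mesothelial and 11 of 13 epithelial markers, against 31.1% of all genes tested. It was the highest LL bird in 2 of the 11 mesothelial markers, ALDH1A2 (9.40 CPM) and PDPN (12.5 CPM). That held in 0 of the 13 epithelial markers and in 3265 of the 11187 genes tested. LL1 was also lowest in 6 of 6 red blood cell, 7 of 12 adipocyte and 7 of 15 endothelial markers, so the lowest rank alone was not particular to surface markers. Both entries of PLIN1 are among those 7 adipocyte markers. LL1 was highest in 0 of 6 red blood cell, 4 of 12 adipocyte and 3 of 15 endothelial markers. The size of the drop also differed. MSLN was at 1.14 CPM in LL1 against 5.25 to 17.0 CPM in the other LL birds, and WT1 at 8.12 against 11.3 to 14.7 CPM. The red blood cell sum was 313 CPM in LL1 against 542 to 755 CPM. The full order held in 0 of the 6 red blood cell, 2 of the 12 adipocyte and 0 of the 15 endothelial markers. This order was chosen after the values of GPRC5A had been seen, and it is given without a test. The FL birds showed no common full order, but FL4 was the highest FL bird for GPRC5A, EPCAM, CDH1, UPK3B, UPK1B and SCNN1A. For GPRC5A it was barely above FL2. FL2 came second for EPCAM, CDH1 and UPK3B, and FL3 for UPK1B and SCNN1A. These second ranks rest on few counts. EPCAM in FL2 was at 0.686 CPM and UPK1B in FL3 at 0.407 CPM, where 3 counts are 0.698 and 0.398 CPM. SCNN1A had 28 counts in FL3 and 33 in FL1. Counting error alone could change such an order. FL1 was highest for MSLN, followed by FL4, and FL3 was highest for KRT19. FL4 was also the library with the high skeletal muscle markers. MSMB, AQP1 and PPL did not show the LL order of GPRC5A, and LL1 was the highest LL bird for MSMB and AQP1 and came after LL2 for PPL. FL4 was not the highest FL bird for any of them.

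**Figure D3:**
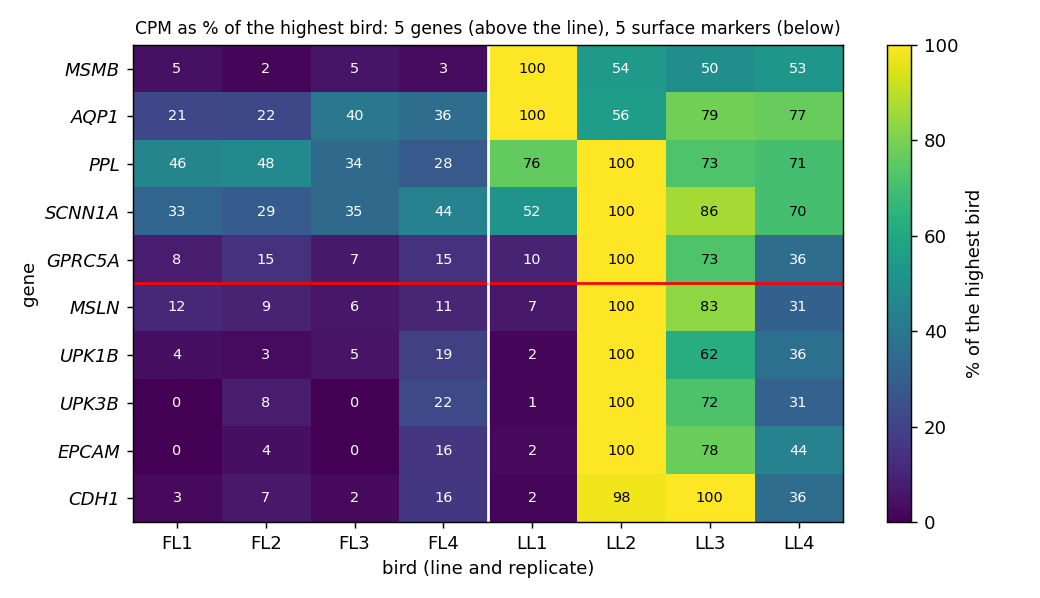
CPM of each bird as a percentage of the highest bird for the 5 genes (above the red line) and 5 mesothelial and epithelial markers (below it), with FL birds on the left and LL birds on the right. The 5 markers are a part of those named in the text. Among those not shown are WT1, KLF5, LRRN4, KRT19, PDPN, ALDH1A2, GJB1, ST14 and LAMB3. Of these, ALDH1A2, GJB1, ST14 and LAMB3 were higher in the FL on average, and LL1 was the highest LL bird for ALDH1A2 and PDPN. In LL1, GPRC5A was at 9.68%, MSLN at 6.70% and EPCAM at 2.48% of the highest bird, whereas MSMB and AQP1 were at 100% there.

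Within the lines, the 5 genes did not vary together as 1 group. Deviations of log2 CPM from the line mean gave 3 positive and 7 negative correlations among the 10 pairs, with r from -0.84 to 0.83. In the exact permutation test within lines (576 arrangements, smallest possible p = 0.00174), 2 pairs had p at or under 0.05 and 0 had it after Benjamini-Hochberg adjustment over the 10 pairs. SCNN1A and GPRC5A were the most alike (Pearson r = 0.83, permutation p = 0.0434, adjusted p = 0.217; Spearman rho = 0.74, permutation p = 0.0868). Without LL1 and LL2, the birds farthest from the median, their r was 0.41, so the relation rests on those birds.

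MSMB and GPRC5A went against each other (r = -0.72, permutation p = 0.0243, adjusted p = 0.217; rho = -0.64, permutation p = 0.118), and r was -0.48 without FL3 and LL1. MSMB had 18, 3, 17 and 12 counts in FL replicates 1 to 4. Each of its correlations, with genes or marker lists, therefore rests in part on counting error. PPL and AQP1 also ran in opposite directions (r = -0.84, permutation p = 0.0729, adjusted p = 0.243; rho = -0.67, permutation p = 0.128), and r was -0.69 without FL2 and LL2. MSMB and AQP1, which share LL1 as the highest bird, had r = 0.52 with a permutation p of 0.290 and an adjusted p of 0.580 (rho = 0.38, permutation p = 0.394), and r was -0.02 without FL3 and LL1. Without FL4, r was 0.86 for SCNN1A and GPRC5A, -0.71 for MSMB and GPRC5A and -0.87 for PPL and AQP1. The adjusted permutation p was 0.208 for each.

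Of the 15 relations between the 5 genes and the summed mesothelial, endothelial and red blood cell markers, 2 had a permutation p at or under 0.05 and 0 had it after adjustment, the smallest adjusted p being 0.365. The 2 were PPL with endothelium (r = 0.71, permutation p = 0.0486; rho = 0.81, permutation p = 0.0260), with r = 0.62 without FL2 and LL2, and MSMB with red blood cells (r = -0.70, permutation p = 0.0469; rho = -0.86, permutation p = 0.0260), with r = -0.59 without FL3 and LL1. Both had an adjusted p of 0.365 for r and 0.195 for rho. GPRC5A and the mesothelial sum had r = 0.72 (permutation p = 0.0868, adjusted p = 0.434; rho = 0.48, permutation p = 0.285), and r was 0.24 without LL1 and LL2. SCNN1A and that sum had r = 0.65 (permutation p = 0.149, adjusted p = 0.542; rho = 0.62, permutation p = 0.163), and r was 0.14 without LL1 and LL2. MSMB, PPL and AQP1 had r of -0.33, 0.09 and -0.09 with it, with permutation p of 0.422, 0.814 and 0.818. By line, r with the mesothelial sum was -0.09 in the FL and 0.98 in the LL for GPRC5A, and -0.10 and 0.99 for SCNN1A. It was 0.06 and -0.84 for MSMB, -0.25 and 0.49 for PPL, and 0.63 and -0.84 for AQP1. The values by line rest on 4 birds each.

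**Figure D4:**
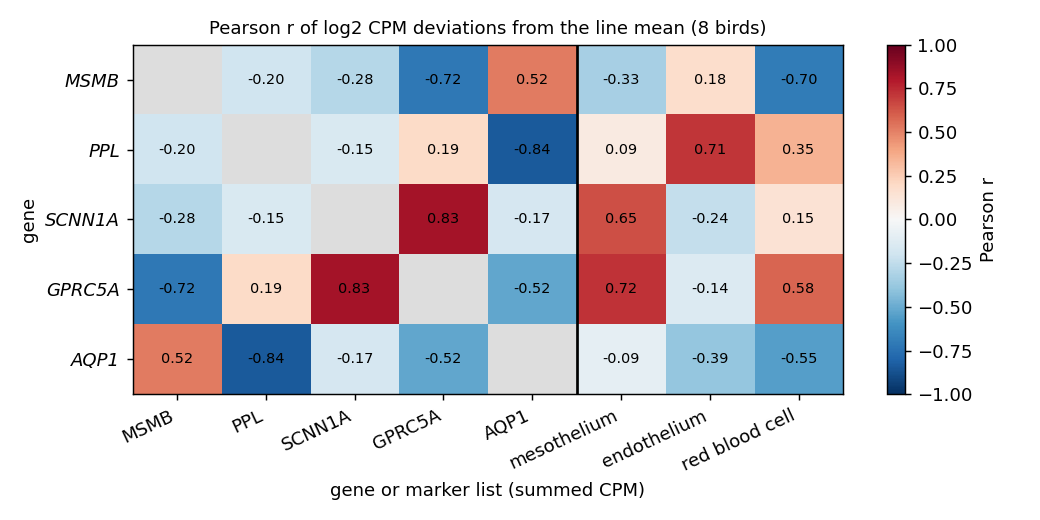
Pearson r of log2 CPM deviations from the line mean over 8 birds, between the 5 genes (left of the black line) and with the summed level of 3 marker lists (right of it), with red for positive and blue for negative values. SCNN1A with GPRC5A (0.83) and GPRC5A with mesothelium (0.72) are the highest, and no relation passed the adjusted test.

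With the mesothelial level as a covariate, the log2 fold change of GPRC5A moved from -2.30 to -0.77 and that of SCNN1A from -1.11 to -0.78. It stayed at -4.37 for MSMB, -0.996 for PPL and -1.42 for AQP1, beside -4.06, -1.04 and -1.38 without the covariate. The mesothelial sum was itself higher in the LL on average, so the covariate and the line share part of their difference. The fit used the same slope on the covariate in both lines, although r with the sum differed between the lines. LRRN4 and KRT19 made up the larger part of the level of that sum, but not of all its differences between birds. From LL1 to LL2 the sum went from 89.7 to 194 CPM. Over the same birds KRT19 went from 13.2 to 51.6 CPM, UPK3B from 0.285 to 20.7 CPM and MSLN from 1.14 to 17.0 CPM. LRRN4 went from 40.3 to 45.5 CPM. Whether the number of surface cells in the samples differed was not tested.

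**Figure D5:**
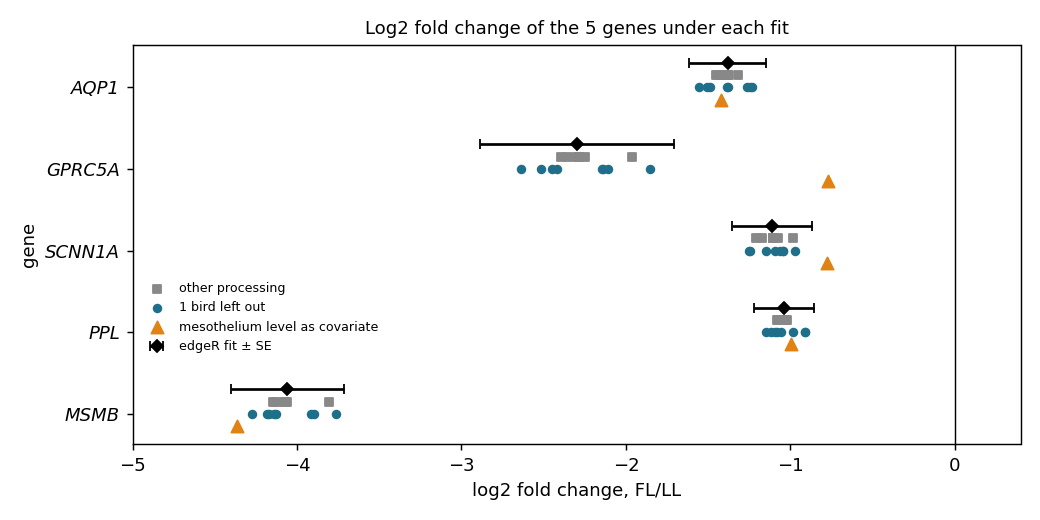
Log2 fold change (FL/LL) of the 5 genes in the edgeR fit (diamond, ± SE), with other processing (squares), with 1 bird left out (circles) and with the mesothelial level as a covariate (triangles). All values lie below 0, and the triangle of GPRC5A at -0.77 is the farthest from its diamond at -2.30.

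For each of the 5 genes, the 5 tested genes with the most similar deviations within lines were found. The closest was MIER3 for MSMB (r = 0.99), WAC for PPL (r = 0.998), LIMK1 for SCNN1A (r = 0.98), SLC25A38 for GPRC5A (r = 0.98) and LRRFIP1 for AQP1 (r = 0.98), over 8 birds, and the lines overlapped for each of them. The highest r of a tested gene with any other had a median of 0.983 over all genes, with 0.958 and 0.995 as its 5th and 95th percentiles.

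Repeated sequencing of the same library, compared by the counts of runs 2 and 3 over the birds, gave a chi-square of 3.17 on 7 degrees of freedom for MSMB, 6.17 on 8 for PPL, 10.005 on 8 for SCNN1A, 6.88 on 8 for GPRC5A and 5.36 on 8 for AQP1. Run 1 differed more from runs 2 and 3 for PPL, with a chi-square of 77.8 on 8 degrees of freedom and a lower CPM in run 1 in 8 of 8 birds, and for MSMB, with 21.1 on 8. It was 8.70 to 10.02 on 8 for the other genes. The log2 fold change of PPL was -1.02 in run 1 alone and -1.08 in runs 2 and 3, and that of MSMB was -4.15 and -3.81. The paper describes 3 sequencing schemes with unlike numbers of libraries per lane, and 1 FL and 1 LL library were sequenced again in single lanes. Run 1 totals were largest in FL4 (6723712 counts) and LL3 (8391272), followed by LL1 (4311571). How the schemes bear on run 1 was not tested. Between birds, GPRC5A varied most, and its SD of log2 CPM within lines (1.12) was larger than in 98.5% of the genes tested.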

How the data were processed

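RNA of abdominal fat was sequenced as paired-end libraries of 4 FL and 4 LL birds, 3 runs each. The authors called bases with CASAVA 1.8.2, mapped reads in CLC Genomics Workbench to chicken build 2.1 with Ensembl genes and flanking sequence, and left out reads with several matches. The deposited counts are unscaled exon reads per gene and run, and the 3 runs of a bird were summed. The authors' 24 normalized columns and their means, fold changes and p-values were not used. Ensembl names were completed from RefSeq and UniProt entry names, and positions are those of the deposited table.

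Counts were normalized by TMM and tested with edgeR 4.0.16 in R 4.3.3 (filterByExpr, quasi-likelihood F test, two-sided, Benjamini-Hochberg adjustment over 11187 genes). CPM include TMM factors of 0.916 to 1.05, and log2 CPM used a prior count of 0.5. A count of 0 allows 3 counts, 0.233 to 0.698 CPM. Intervals are for counting error only. The edgeR p-values test the line difference against the variation between birds, and the permutation p-values compare r with its values in all arrangements within lines. The fit and the permutation test were tested on simulated data.

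Members and gene lists were chosen with earlier results of these data known. Named were the 5 genes, the other gene named MSMB, DE genes of the lists, otherwise up to 4 genes per list with the lowest unadjusted p under 0.05, and the genes most alike in deviation. Other list genes (EVPL, SCNN1B, SCNN1G, AQP3, GPRC5B, GPRC5C, CALB2, LRRN4, KRT19, ALDH1A2, PDPN and GJB1) were named after their values were seen. The lists also covered gut, pancreas, kidney, leukocyte and muscle markers. Alternatives were DESeq2 1.42.0, total-count scaling, no filter, at least 10 counts in every bird, runs 2 and 3 or run 1 only, a replicate block, marker covariates, CPM in place of log2 CPM and each bird left out. Figures used Python 3.11.15 and matplotlib 3.10.9.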

Additional observations from a re-analysis of the deposited data

Results flagged for a closer look

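Of 94 groups of 4 birds examined, 11 had a bird whose gap to its neighbours exceeded Dixon's 95% critical value, which chance exceeds in about 1 in 20 independent groups. The 94 were not independent, since many genes were named for a low unadjusted p and the sums hold some of the same genes. The 11 can therefore not be set against that rate. MSMB in LL1 was at 42.1 CPM against 20.9 to 22.9 in the other LL birds, and its neighbouring copy in LL1 was at 43.9 CPM against 155 to 171. UPK1B in FL4 was at 1.52 CPM against 0.229 to 0.407 in the other FL birds, and the summed plakin and desmosome genes in LL3 reached 1572 CPM against 1051 to 1129. PROX1 in FL3 was at 4.61 CPM against 3.89 to 3.95, and MARCO in FL2 at 45.05 CPM against 3.65 to 6.43. The other 5 were muscle values of FL4, with a skeletal muscle sum of 16732 CPM, MYH1 at 3778 CPM, ACTN2 at 997 CPM, ACTA1 at 11218 CPM and TNNT3 at 739.5 CPM, against at most 92.9, 2.52, 1.09, 86.5 and 3.66 CPM in the other FL birds.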

How the results depend on the processing

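The log2 fold changes of the 5 genes kept their sign in every fit run, and MSMB was not tested where 10 counts were required in every bird. The number of DE genes was 41 as reported, 319 with DESeq2, 27 without a filter, 133 with runs 2 and 3, 1 with run 1 and 8 with the replicate block. With 1 bird left out it was 2 to 65, the 65 being without FL4. Total-count scaling shifted the median log2 fold change to -0.06 and the split of FL against LL calls from 23 and 18 to 20 and 26. Of the genes on the lists, 3 were DE as reported, 10 with DESeq2, 6 with runs 2 and 3, 0 with run 1 and 0 to 5 with 1 bird left out. Of the 5 genes, 3 were DE as reported, 5 with DESeq2, 1 with run 1, 1 with the replicate block and 1 to 3 with 1 bird left out. The counts over all genes in these fits are those given above. As the 5 were chosen on this contrast, their calls are no evidence about them. The neighbouring copy of MSMB, not a DE gene as reported, was one with DESeq2 (adjusted p = 0.0248), with runs 2 and 3 (edgeR adjusted p = 0.0423) and without LL1 (edgeR adjusted p = 0.0118). GPRC5A with the mesothelial covariate was at -0.77. Leaving out FL4 reversed MYH1, ACTN2, ACTA1 and TNNT3, whose log2 fold changes over birds left out ranged from -0.97 to 8.55, -0.63 to 7.66, -0.079 to 5.44 and -0.72 to 5.41. The reported fit did not pair birds by number. Deviations of same-numbered birds correlated at 0.24, -0.04, -0.12 and -0.05. These values cannot show whether such birds shared a lane or other handling, which was not tested. The cause of these shifts was not tested.

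With 4 birds a line, single birds decide calls near the threshold. Reads with several matches were left out, and how many of them belonged to MSMB or its neighbouring copy was not tested. Gene lengths were not used, so levels are not compared between genes. SCNN1A and GPRC5A rest on 14 to 120 and 16 to 270 counts a bird, and MSMB on 3 to 18 counts in the FL.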

Other observations

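Some other surface genes too low for the test were also lowest in LL1 among the LL birds, and they were picked after their counts were seen. MUC16, a mucin of mesothelium, had 1, 0, 1 and 12 counts in FL replicates 1 to 4 and 1, 69, 100 and 38 counts in LL replicates 1 to 4. CLDN3, a tight junction protein of epithelia, had 0, 0, 0 and 11 counts in the FL and 0, 28, 37 and 9 counts in the LL. In both genes LL1 was as low as FL1 to FL3. The counts are not scaled for depth, and LL3 had a total of 12876999 counts against 5548867 in LL2. The order of LL2 and LL3 can therefore not be read from these counts. AQP11, an aquaporin of cell interiors, had 30, 7, 10 and 13 counts in the FL and 2, 5, 9 and 3 counts in the LL.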
